A study of Medicago truncatula with 12 samples.

Results

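Of the 54073 genes measured in *Medicago truncatula* seedlings, 150 were followed here because they were listed at 0 before stress and reached the highest levels after it. They were chosen as genes with an FPKM of exactly 0 in all 3 libraries taken at 0 h, leaving out the *MtSWEET* sugar transporter genes, and then as the 150 with the highest FPKM in any of the 9 later libraries. FPKM counts the sequenced fragments (pairs of reads) assigned to a gene, scaled to the length of its transcript and to the mapped fragments of the library. The levels at 0 h and the highest later levels were therefore used in the choice, and they are given as a description, with no test. The seedlings were wild type plants of the inbred line Jemalong A17, aged 4 weeks and grown with 14 h of light and 10 h of darkness. Seedlings were sampled after 0, 2, 6 and 12 h of cold, of drought (transfer to dry filter paper) and of salt (Hoagland solution with added NaCl), with 1 library for each of the 12 conditions. No library of unstressed seedlings at 2, 6 or 12 h is analysed here, so stress and elapsed time cannot be told apart, and no difference between conditions has a replicate check. Seedlings hold many cell types, so more RNA per cell and more cells of a type that expresses a gene cannot be told apart.

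Plants answer cold, water loss and high salt in waves. In *Arabidopsis*, genes for transcription factors such as the CBF proteins respond early and briefly to cold, whereas water loss raises the hormone abscisic acid, and many genes that respond to it encode proteins that protect dehydrating cells. High salt brings osmotic stress, shared with drought, together with the toxicity of ions. The identifiers of the 150 genes have no name or description in the sources used here, so none of them is assigned to such a role, and they are called by their identifiers.

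The libraries held between 27131295 and 56185408 mapped reads, which came in pairs, and 3.74% to 6.83% of mapped reads mapped to more than 1 place. For a gene of 1 kb, 3 fragments amounted to 0.107 FPKM in the deepest library and 0.221 FPKM in the shallowest. Between 20766 and 22100 genes had at least 1 FPKM in a library. Each library was set against the per-gene geometric mean over the libraries, and the log2 median of this ratio was between -0.13 and 0.06 at the later times, and between 0.14 and 0.16 at 0 h. With this shift removed, 142 of the 150 genes were chosen again. No gene was at 0 in 1 library and at 10 FPKM or more in the 11 others, so no sign was seen of failed estimates listed as 0.

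In all, 23231 genes were at 0 in the 3 libraries at 0 h, of which 8 were *MtSWEET* genes with at most 0.676 FPKM later. Of the other 23223 genes, 16799 stayed at 0 in every library, 6424 had at least 1 fragment later, 467 reached 1 FPKM and 16 reached 10 FPKM. The highest FPKM of the 150 genes had a median of 3.46, with quartiles of 2.47 and 5.58. The 3 genes just inside the limit were MTR_4g086590 at 2.16 FPKM, MTR_7g112910 at 2.16 FPKM and MTR_7g033775 at 2.13 FPKM. Just outside it were MTR_2g100820 at 2.12 FPKM, MTR_5g007470 at 2.11 FPKM and MTR_2g102675 at 2.11 FPKM, so the limit of 150 cut through a continuous range. In the other direction, 9 genes were at 0 in all 9 later libraries and at 1 FPKM or more in any library at 0 h, and 0 were at 1 FPKM or more in all 3 of those, with a highest value of 1.98 FPKM. This count requires 0 in 9 libraries and a value in any of 3, so it cannot be set against the 467 genes, for which the numbers of libraries are the other way round.

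A gene was counted as on in a library at 1 FPKM or more, the level below which the study regarded a gene as barely expressed. By this rule 40 of the 150 genes were on in cold, 104 in drought and 115 in salt, at any of the 3 times. Over all 23223 genes that were at 0 before stress, the shares on were 0.388% in cold, 1.05% in drought and 1.3% in salt. The largest class, with 67 genes, was on in drought and salt without cold, while 21 were on in drought only, 22 in salt only and 12 in cold only. Another 12 were on in cold and salt, 2 in cold and drought, and 14 in all 3 stresses. Of the genes on in drought, 77.9% were also on in salt, and of those on in salt 70.4% were also on in drought. Both were close to the shares among all 150 genes, of which 115 were on in salt and 104 in drought. Of the 40 genes on in cold, 65% were on in salt and 40% in drought, both below those shares. Each of the 150 genes was on in at least 1 stress, which affects such overlaps, so nothing is read from them. In the wider list of 467 genes that reached 1 FPKM, 107 (22.9%) were on in drought and salt without cold, 113 in drought only and 157 in salt only, so the shared class made up a larger share of the 150 highest genes (44.7%). The rule chose the genes by level, and a gene at a low level reaches 1 FPKM in fewer libraries, so nothing is read from this difference. When the 6 h drought library was not used and the genes were chosen again, 44 were on in drought and salt without cold and 46 in salt only. Without the 0 h drought library 24 were on in all 3 stresses, 12 in drought only and 13 in salt only, and without the 0 h cold library 26 were on in all 3. Without the 12 h salt library 38 were on in drought only and 13 in salt only.

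**Figure D1:**
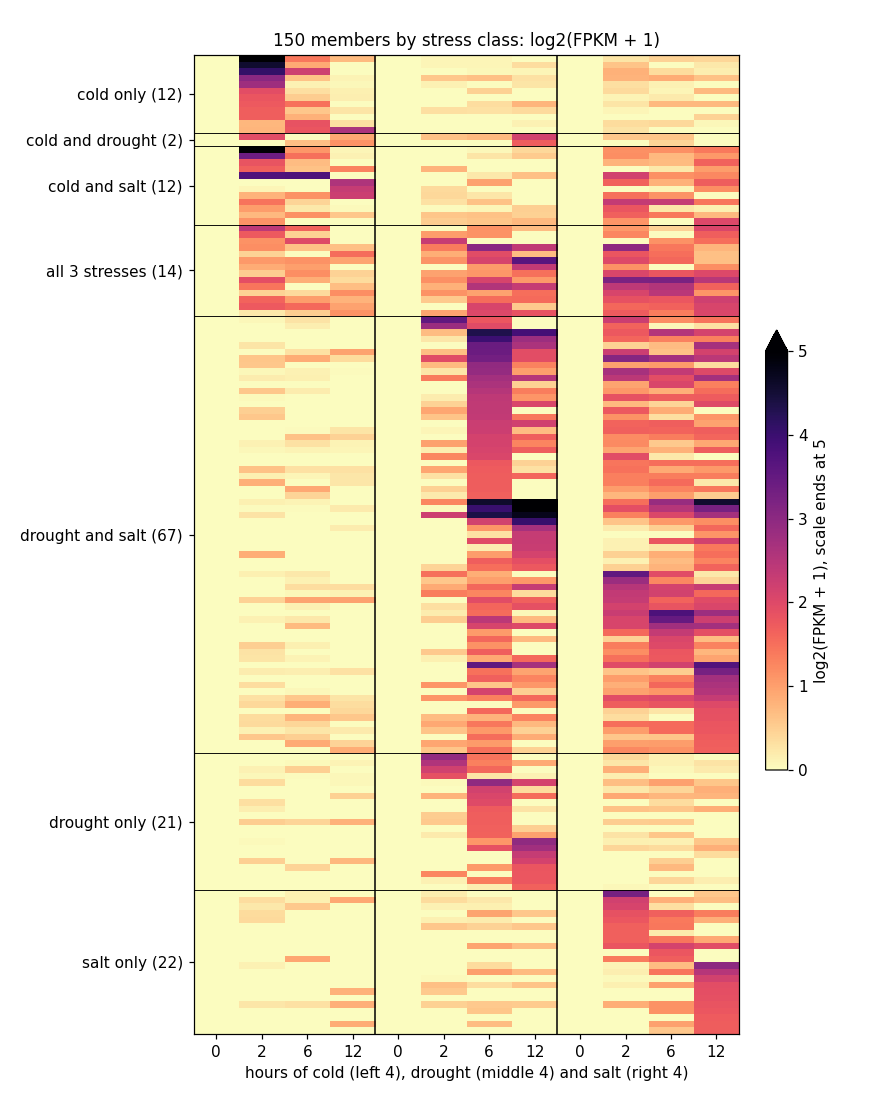
Heat map of the 150 genes (rows, grouped by the stresses in which they were on) in the 12 libraries (columns, hours of cold, drought and salt), coloured by log2(FPKM + 1) on a scale that ends at 5. The columns at 0 h are empty because the rule requires 0 there, the cold columns are filled mainly for 40 genes and most at 2 h, and the class on in drought and salt is the largest with 67 genes.

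The stresses differed in when the genes were on. In cold, 28 genes were on at 2 h, 17 at 6 h and 9 at 12 h, against 0.211%, 0.142% and 0.116% of all genes at 0 before stress. In drought, 22 were on at 2 h, 88 at 6 h and 60 at 12 h (0.233%, 0.732% and 0.452% of all such genes). In salt, 77 were on at 2 h, 72 at 6 h and 87 at 12 h (0.599%, 0.672% and 0.762%). For comparison, of the genes with at least 1 FPKM at the later time or at 0 h, the share at least 2 times higher than at 0 h was 5.63%, 6.93% and 6.88% at 2, 6 and 12 h of cold. It was 9.91%, 14.1% and 12.8% in drought, and 11.8%, 14.4% and 16.8% in salt. The deepest library (56185408 mapped reads, 6 h of cold) had 17 genes on. The shallowest (27131295 mapped reads, 12 h of cold) had 9 and the next shallowest (27725619 mapped reads, 12 h of drought) had 60. The part of depth in these numbers was not tested.

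Few of the genes that were on at 2 h of cold remained so, whereas most of those on at 2 h of salt did. Of the 28 genes on at 2 h of cold, 11 were on at 6 h and 1 at 12 h, and no gene was on at all 3 times of cold. Of the 22 genes on at 2 h of drought, 16 were on at 6 h and 11 at 12 h, and 8 were on throughout. Of the 77 genes on at 2 h of salt, 58 were on at 6 h and 53 at 12 h, and 43 were on throughout. In drought 72 of the 104 genes were first on at 6 h, and in salt 77 of the 115 were first on at 2 h. Over the stresses together, 97 genes were first on at 2 h, 37 at 6 h and 16 at 12 h. The number first on at 2 h rested on the 2 h salt library, since without it 47 genes were first on at 2 h and 83 at 6 h. Without the 6 h drought library 14 were first on at 6 h and 38 at 12 h, and without the 0 h drought library 9 were first on at 12 h.

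**Figure D2:**
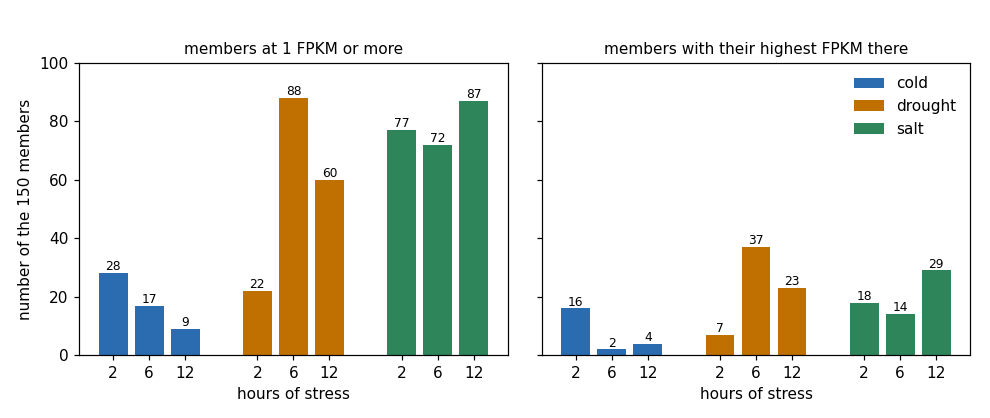
Bars give the number of the 150 genes at 1 FPKM or more in each later library (left) and the number with their highest FPKM there (right), by hours of cold, drought and salt. Cold declined from 28 genes on at 2 h to 9 at 12 h, drought was highest at 6 h with 88, and salt stayed between 72 and 87.

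The highest level of all was that of MTR_1g076910, in drought. It had 1.38, 22.9 and 118 FPKM at 2, 6 and 12 h of drought and 1.86, 6.26 and 22.6 FPKM at the same times of salt, against 0 in the libraries at 0 h. In cold its values were 0.101, 0.0835 and 0 FPKM, from 2 fragments at most. Its 118 FPKM came from 1394 fragments (95% exact Poisson interval 112 to 124 FPKM), at least 593-fold higher than 3 fragments would be in the 0 h drought library (0.199 FPKM). The level increased with time in both stresses and was higher in drought than in salt at 6 and 12 h. MTR_2g091170 had a similar course, with 0.0378, 15.2 and 31.9 FPKM in drought, 2.75, 4.73 and 8.52 FPKM in salt and at most 0.148 FPKM in cold. Its highest value rested on 1103 fragments and was at least 469-fold above the floor of 3 fragments at 0 h. MTR_2g015545 had 3.62, 19.5 and 25.5 FPKM in drought, 1.5, 3.14 and 5.49 FPKM in salt and at most 0.221 FPKM in cold, but on a short transcript, so that 25.5 FPKM came from 69 fragments (95% exact Poisson interval 19.9 to 32.3 FPKM).

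In all, 37 of the 150 genes were highest at 6 h of drought, with medians of 0.184, 3.46 and 1.14 FPKM at 2, 6 and 12 h of drought, and 23 were highest at 12 h of drought, with medians of 0, 1.13 and 3.91 FPKM. The second set included MTR_6g023180, which had 0, 3.47 and 15.4 FPKM in drought and 0.526, 1.1 and 1.26 FPKM in salt. MTR_5g081730 had 0.62, 19 and 13.8 FPKM at 2, 6 and 12 h of drought and 2.39, 4.8 and 3.37 FPKM at these times of salt, with 0 in all cold libraries. MTR_6g004890 had 0.176, 14.7 and 5.94 FPKM in drought and 2.04, 1.47 and 1.5 FPKM in salt, again with 0 in cold. These genes shared a higher level in salt than in drought at 2 h and the opposite at 6 h. MTR_7g053460 had 0, 9.73 and 5.15 FPKM in drought, 0.399, 0.625 and 5.41 FPKM in salt and 0.206 FPKM or less in cold. MTR_3g112400 was on in all 3 libraries of drought (2.92, 8.99 and 2.8 FPKM) and of salt (7.46, 5.59 and 4.4 FPKM), and below 1 FPKM in cold (0.502, 0.828 and 0.286 FPKM). MTR_2g023000 had 0.646, 6.64 and 1.46 FPKM in drought, and its values in salt, 0.979, 1.06 and 0.27 FPKM, lay close to the limit of 1 FPKM that put it in this class.

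Salt gave the highest value of 61 genes, 18 at 2 h, 14 at 6 h and 29 at 12 h. MTR_4g132390 had 3.85, 12.7 and 6 FPKM at 2, 6 and 12 h of salt, from 415 fragments at 6 h, and 0.132, 1.9 and 0.0506 FPKM in drought. MTR_4g081810 had 3.25, 9.99 and 3.66 FPKM in salt and 0.43, 4.41 and 0.659 FPKM in drought. Both were highest at 6 h in either stress. MTR_7g005920 had 2.92, 3.45 and 12 FPKM in salt and 0, 10.5 and 5.46 FPKM in drought, so its highest values in the stresses were close (95% exact Poisson interval 9.1 to 15.4 FPKM in salt at 12 h). MTR_7g018280 was highest at 12 h of salt, with 0.542, 0.425 and 8.65 FPKM in salt and 0, 1.79 and 0.934 FPKM in drought.

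**Figure D3:**
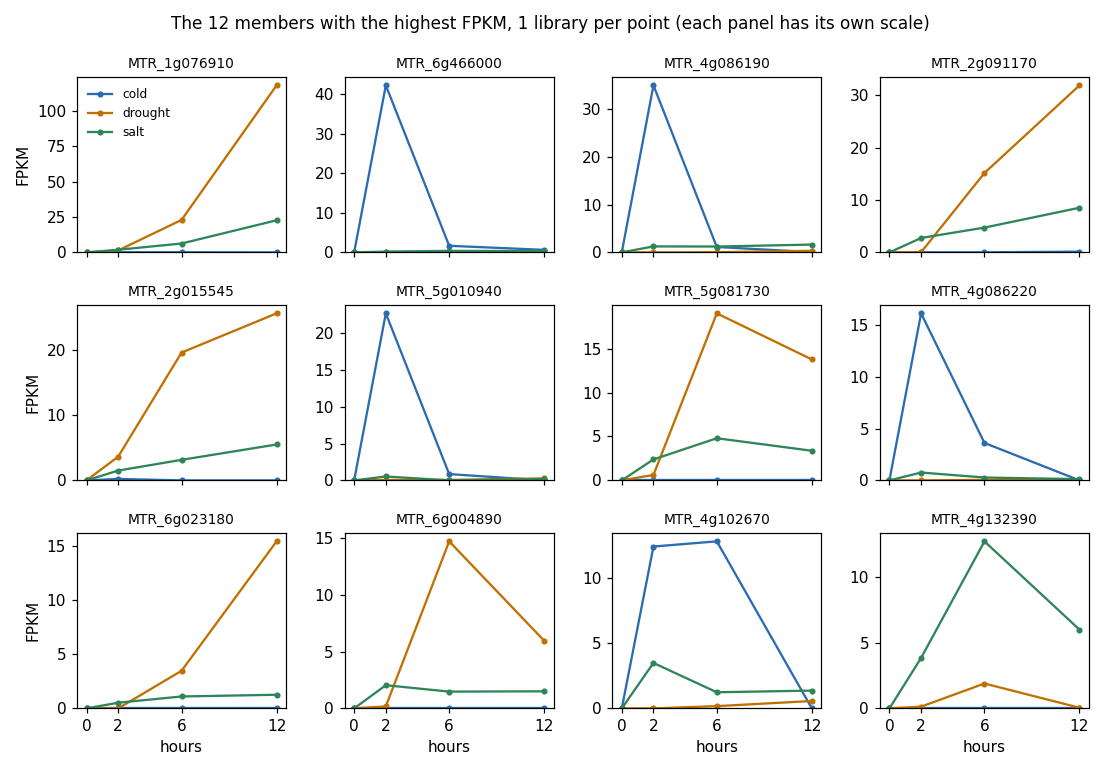
FPKM (linear axes, each panel with its own scale) of the 12 genes with the highest values, against hours of cold, drought and salt, with 1 library per point. Cold values are high at 2 h in MTR_6g466000 (42.2 FPKM), MTR_4g086190 (34.9), MTR_5g010940 (22.7), MTR_4g086220 (16.2) and MTR_4g102670 (12.4), and the other 7 panels carry drought or salt.

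A smaller set was highest early. MTR_5g066690 had 10.5, 2.85 and 0.161 FPKM at 2, 6 and 12 h of salt and 1.82, 0.8 and 0 FPKM in drought. MTR_3g465090 had 10.4, 2.47 and 0 FPKM in drought and 3.7, 1.27 and 1.73 FPKM in salt. In both, the level at 2 h was higher than at 6 and 12 h of the same stress. MTR_7g057330 had 6.11, 2.88 and 0 FPKM in drought and 2.08, 0.0507 and 0.232 FPKM in salt. MTR_2g070200, counted as on in drought only, had 6.57, 1.73 and 0 FPKM in drought and at most 0.327 FPKM in salt, and MTR_4g128340 had 4.95, 1.49 and 0.859 FPKM in drought and at most 0.217 FPKM in salt. In all, 7 genes were highest at 2 h of drought and 18 at 2 h of salt, and those 18 had medians of 3.36, 1.69 and 0.722 FPKM at 2, 6 and 12 h of salt.

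The 81 genes on in both drought and salt, with or without cold, were compared time by time. At 2 h, 6 were higher in drought and 74 in salt. At 6 h, 56 were higher in drought and 25 in salt, and at 12 h 31 were higher in drought and 48 in salt. The shares on among all 23223 genes at 0 before stress, which include these, had the same order. They were 0.233% in drought and 0.599% in salt at 2 h, 0.732% and 0.672% at 6 h, and 0.452% and 0.762% at 12 h. Because these shares include the 81 genes, they cannot show whether the order is particular to them. Among genes with at least 1 FPKM at either time, the shares at least 2 times higher than at 0 h were higher in salt throughout. They were 9.91% in drought and 11.8% in salt at 2 h, 14.1% and 14.4% at 6 h, and 12.8% and 16.8% at 12 h. By their highest values 44 were higher in drought and 37 in salt, 44 of the 81 were within 2-fold and the median ratio of drought to salt was 1.13. These counts include differences within counting error, and the stresses had 1 library each at every time.

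Among the genes on in drought only, MTR_6g045273 had 0, 1.13 and 6.78 FPKM at 2, 6 and 12 h of drought, from 313 fragments at 12 h, and at most 0.502 FPKM in salt. MTR_4g032845 had 0.0355, 6.73 and 3.37 FPKM in drought, and its 0.987 FPKM at 6 h of salt was just under the limit. MTR_8g028480 had 0, 2.62 and 5.67 FPKM in drought and 0.342, 0.286 and 0.766 FPKM in salt. All 3 therefore had fragments in salt at a lower level. Among the genes on in salt only, MTR_1g060910 was on at 2 h alone, with 8.68 FPKM against 0 and 0.499 FPKM at 6 and 12 h, and 92.1% of its summed FPKM lay in that library. MTR_5g005920 was on at 12 h alone, with 6.89 FPKM (0.0838 and 0.613 FPKM at 2 and 6 h), and MTR_1g023530 had 3.46 FPKM at 12 h of salt and at most 0.0344 FPKM elsewhere. MTR_4g066250 had 0.126, 1.71 and 4.62 FPKM in salt, and its 0.995 FPKM at 6 h of drought lay at the limit. MTR_7g490300 was on at 2 h of salt with 3.52 FPKM. These were the 5 highest of the 22 genes on in salt only. Lower in that class some genes rested on few fragments, such as MTR_3g063130 with at most 4 in any library. At a limit of 0.5 FPKM, 10 genes were on in drought only and 11 in salt only, fewer than the 21 and 22 at 1 FPKM, since others had between 0.5 and 1 FPKM in a further stress.

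Cold gave 22 of the 150 highest values, 16 of them at 2 h, 2 at 6 h and 4 at 12 h. The genes highest at 2 h of cold had a median of 3.53 FPKM there, 0.687 FPKM at 6 h and 0.0586 FPKM at 12 h, and 15 of the 16 were below 1 FPKM at 12 h. Of these genes, 6 were on in salt and 2 in drought. MTR_6g466000 had 42.2, 1.67 and 0.635 FPKM at 2, 6 and 12 h of cold, and at most 0.377 FPKM in any library of drought or salt. Its highest value came from 793 fragments (95% exact Poisson interval 39.3 to 45.2 FPKM), at least 185-fold above 3 fragments in the 0 h cold library. MTR_5g010940 had 22.7, 0.856 and 0 FPKM in cold and at most 0.53 FPKM elsewhere. The 2 h cold library held 92.7% of the summed FPKM of MTR_6g466000 and 92.1% of that of MTR_5g010940. MTR_4g102670 differed in lasting to 6 h, with 12.4, 12.8 and 0 FPKM in cold, 3.49, 1.24 and 1.37 FPKM in salt and at most 0.567 FPKM in drought. When the 2 h cold library was not used and the genes were chosen again, 20 were on in cold, 3 in cold only and 5 in cold and salt, and 7 were highest in cold.

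Higher values at 12 h of cold were few, and those named here rested on 8, 13 and 34 fragments. MTR_6g082760 had 0.696, 2.49 and 5.15 FPKM at 2, 6 and 12 h of cold, the last from 13 fragments (95% exact Poisson interval 2.74 to 8.81 FPKM). MTR_1g012630 had 0.0682, 0 and 3.96 FPKM in cold, from 34 fragments, and 1.27 FPKM at 12 h of salt. EPlMTRG00000002001 had 5.04 FPKM at 12 h of cold from 8 fragments, and 2.15 and 2.29 FPKM at 2 and 12 h of salt. The largest values in cold thus lay at 2 h and, for MTR_4g102670, at 6 h.

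Genes on in every stress were at moderate levels, and none of the 150 was on in all 9 later libraries. Of the 14 genes of this class, MTR_5g043320, MTR_7g063460 and MTR_8g100030 were on in 7 libraries, the most of any. MTR_5g043320 had 1.09, 1.2 and 0.933 FPKM in cold, 1.19, 3.26 and 11.6 FPKM in drought and 3, 2.03 and 0.564 FPKM in salt. MTR_7g063460 had 2.75, 0.8 and 0.276 FPKM in cold, 1.24, 3.31 and 1.08 FPKM in drought and 8.31, 8.36 and 4.51 FPKM in salt. MTR_5g043320 was thus highest at 12 h of drought, and MTR_7g063460 had about the same level at 2 and 6 h of salt. MTR_8g100030 had 2.12, 1.05 and 0.723 FPKM in cold, 0.462, 1.89 and 1.94 FPKM in drought and 2.67, 2.47 and 3.6 FPKM in salt. Part of the class rested on few fragments. EPlMTRG00000000838 was on in 5 libraries from at most 3 fragments in any of them, on a length of 36 bases. With EPlMTRG identifiers left out and the genes chosen again, 9 were on in all 3 stresses. The 2 genes on in cold and drought without salt were MTR_5g037330 (2.83 FPKM at 2 h of cold and 3.44 FPKM at 12 h of drought) and EPlMTRG00000001534 (1.17 FPKM at 12 h of cold and 2.29 FPKM at 12 h of drought). MTR_5g037330 had 11 fragments at 2 h of cold and 8 at 12 h of drought, and EPlMTRG00000001534 had 2 at 12 h of cold and 4 at 12 h of drought. At a limit of 10 fragments in place of 1 FPKM, 0 genes were left in that class.

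The genes differed in how far they were tied to 1 library. The highest library held a median of 45.2% of a gene's summed FPKM, and over 75% for 23 genes. The median share was 63.5% for genes highest at 2 h of cold, 54.4% at 12 h of drought, 41.6% at 6 h of drought, 43.5% at 2 h of salt and 44.5% at 12 h of salt. By the limit of 1 FPKM, 32 genes were on in 1 library, 35 in 2, 25 in 3, 24 in 4, 20 in 5, 11 in 6 and 3 in 7. Any fragment at all was found in all 9 later libraries for 20 genes and in only 1 library for 3. In cold, 40 of the 150 genes stayed at 0 at all 3 later times, whereas 11 did so in drought and 3 in salt.

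Some of the genes lay beside each other. In MTR_ identifiers the digit before g is the chromosome and the number after it follows the order along the chromosome. Of the 126 genes with such an identifier, 15 fell into 7 groups of 2 or 3 whose numbers were within 50 of each other, and in 6 of the 7 groups all members were highest in the same library. How often other genes lie as close, or share their highest library, was not counted, so nothing is read from these numbers. In 3 of these groups, on chromosomes 2, 4 and 6, that library was 2 h of cold. On chromosome 4, MTR_4g086190 had 34.9, 1.13 and 0.0666 FPKM at 2, 6 and 12 h of cold, MTR_4g086220 had 16.2, 3.62 and 0 FPKM, and MTR_4g086160 had 9.47, 1.83 and 0.0924 FPKM. All 3 were therefore highest at 2 h and below 0.1 FPKM or at 0 at 12 h. Outside cold they differed. MTR_4g086190 had 1.25, 1.22 and 1.63 FPKM at 2, 6 and 12 h of salt and MTR_4g086160 had 1.26, 0.658 and 1.09 FPKM, whereas MTR_4g086220 had 0.76, 0.278 and 0.121 FPKM and was counted as on in cold only.

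The groups on chromosomes 2 and 6 had the same course in cold. MTR_2g043030 had 7.23, 0.556 and 0.0767 FPKM and MTR_2g043020 had 5.86, 0.0977 and 0.0506 FPKM at 2, 6 and 12 h of cold, and neither reached 1 FPKM in drought or salt. On chromosome 6, MTR_6g465990 had 2.52, 0.428 and 0.127 FPKM in cold, next to MTR_6g466000 with its 42.2 FPKM at 2 h. Some genes close to these in number missed the rule by a few fragments at 0 h. MTR_2g043040 had 29.8 FPKM at 2 h of cold with 3 fragments over the 3 libraries at 0 h, and MTR_2g043050 had 17.8 FPKM with 1 fragment. MTR_4g086165 had 16.7 FPKM with 3 fragments. MTR_6g466010, with 1 fragment at 0 h, did not have this course and had 1.95, 3.34 and 1.54 FPKM at 2, 6 and 12 h of cold. Other genes between or beside them differed in their course or in their level at 0 h. MTR_4g086170 had 562 fragments at 0 h and 7.26, 6.29, 7.18 and 6.04 FPKM at 0, 2, 6 and 12 h of cold. MTR_4g086240 had 1681 fragments at 0 h and 14.8, 57.1, 29.6 and 20 FPKM at 0, 2, 6 and 12 h of cold. It was thus also highest at 2 h, but from a higher level at 0 h. MTR_2g043080, MTR_4g086180 and MTR_6g466020 were at 0 in every library.

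**Figure D4:**
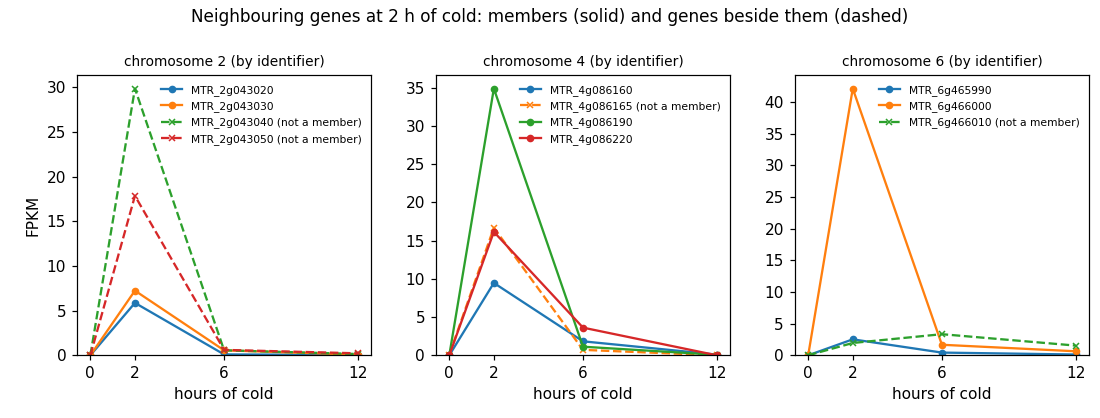
FPKM against hours of cold for genes on chromosomes 2, 4 and 6 that lie close in identifier number, with genes of the 150 as solid lines and genes beside them, which had 1 to 3 fragments at 0 h, as dashed lines (1 library per point). All lines but that of MTR_6g466010 are highest at 2 h, where MTR_6g466000 reaches 42.2 FPKM and MTR_4g086190 reaches 34.9 FPKM. The groups were drawn because all their members were highest at 2 h of cold. A dashed gene was drawn only if its level at 2 h of cold was far above that at 0 h. The shared course therefore follows largely from this choice, and other genes near them are not drawn.

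The other groups were highest in drought or salt. MTR_2g097500 and MTR_2g097510 were highest at 6 h of drought, with 9.55 and 7.09 FPKM, and had 3.76 and 6.91 FPKM at 2 h of salt. MTR_2g097510 was on in cold as well, with 1.25 FPKM from 19 fragments at 2 h, while MTR_2g097500 had at most 0.945 FPKM in cold. MTR_3g088140 and MTR_3g088130 were also highest at 6 h of drought, with 4.27 and 3.46 FPKM, but MTR_3g088140 was on at all 3 times of salt (2.65, 2.28 and 2.3 FPKM) and MTR_3g088130 was below 1 FPKM in salt. MTR_3g067870 and MTR_3g067875 were highest at 12 h of salt, with 2.54 and 2.23 FPKM. The exception was the pair MTR_3g063160, highest at 2 h of drought with 3.51 FPKM, and MTR_3g063130, which had fragments only in salt (2.17, 1.7 and 0.868 FPKM) and at most 4 of them. Neighbours may be similar in sequence and share reads, and the part of such reads in these values was not tested. By identifier, 10 of the 150 genes were on chromosome 6, which holds 7.22% of all genes, 20 on chromosome 3 (12.7% of all genes) and 20 on chromosome 4 (13.7%).

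The number of fragments behind the values differed widely. Lengths and fragments were worked back from FPKM as the smallest that fitted all libraries, so for a gene with few fragments both may in truth be a larger multiple. The highest FPKM of a gene rested on a median of 24 fragments, with a range of 3 to 1394, and 33 of the 150 genes had fewer than 10 fragments while 28 had at least 100. The lengths so obtained had a median of 325 bases, against 438 bases for all genes at 0 before stress with a fragment later and 1290 bases for all genes with a length. Of the 33 genes with fewer than 10 fragments, 28 had such lengths under 200 bases. Identifiers beginning with EPlMTRG made up 23 of the 150 genes (15.3%) but 2554 of all genes (4.72%). Their lengths had a median of 106 bases and their highest values a median of 5 fragments, with 21 of 23 under 10, against a median of 31 fragments for the other 127 genes. Of the EPlMTRG genes, EPlMTRG00000001515 had the most fragments, with 14 at 6 h of salt (4.86 FPKM, 95% exact Poisson interval 2.66 to 8.15 FPKM). EPlMTRG00000002001 had 8 fragments at 12 h of cold, against 0 at 2 and 6 h of cold, and EPlMTRG00000001534 had at most 4 fragments in any library. When the genes were ranked by fragments in place of FPKM, 85 of the 150 remained, and 23 were on in cold.

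**Figure D5:**
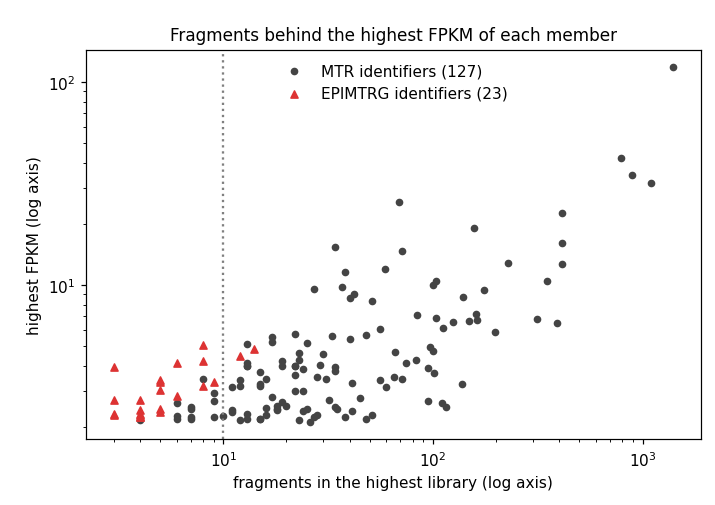
Highest FPKM of each of the 150 genes against the number of fragments behind it (both axes logarithmic), with EPlMTRG identifiers as triangles, other identifiers as circles and a dotted line at 10 fragments. The triangles lie between 3 and 14 fragments, and the highest point is MTR_1g076910 with 118 FPKM from 1394 fragments.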

How the data were processed

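The deposited files hold 1 FPKM value per gene and library, computed by the authors. Their methods name Tophat for alignment to Mt4.0v1 and StringTie for FPKM, whereas the labels list HTSeq and DESeq without versions and describe 3'-tag libraries. The treatment of multi-mapped reads is not given in the sources used here. The identifiers of the 25 *MtSWEET* genes were left out by matching MTR_ to the Medtr form of the paper. Fragments per gene were worked back from the deposited FPKM, using the mapped pairs in the study's mapping sheet and the shortest transcript length up to 30000 bases that made every library's value whole. This succeeded for 37274 of 37274 genes above 0, with a largest deviation of 4e-05 from a whole number. In simulated libraries it was exact for 2799 of 2935 genes, the recovered length was a divisor of the true one for 2935, and 200 of 200 simulated members were found. FPKM values are not counts and each condition had 1 library, so no test across genes was run, and the exact Poisson intervals cover counting error only. The rule for naming genes took the 30 members with the highest FPKM, the 5 highest of each stress class, the 3 highest of each later library, neighbours within 50 in identifier number, and the 3 genes on each side of the limit. A fold over a library at 0 is a lower bound against 3 fragments in that library. The members and lists were chosen with earlier results of these data known. The RefSeq gene table used here matched 0 identifiers (assembly MtrunA17r5.0-ANR), so families by description and promoter motifs could not be examined. The alternatives were other limits for a gene being on, TPM and median-ratio scaling, other numbers of members, ranking by fragments, and looser or reduced conditions at 0 h. Leaving out each later library, allowing 1 to 3 fragments at 0 h and leaving out EPlMTRG identifiers were added after the data were seen. Computations used scipy 1.17.1, pandas 2.3.3 and numpy 2.4.6 under Python 3.11.15, and plots used matplotlib 3.10.9.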

Additional observations from a re-analysis of the deposited data

How the results depend on the processing

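With median-ratio scaling, or with up to 0.05 FPKM allowed at 0 h, every count of the 150 genes stayed within 1.5 times. At a limit of 0.5 FPKM for a gene being on, 24 genes were first on at 6 h, 37 were on in all 3 stresses, 7 in cold only, 10 in drought only and 11 in salt only. At 2 FPKM, 36 were first on at 12 h, 2 were on in all 3 stresses, 6 in cold and salt, 39 in drought and salt, 38 in drought only and 46 in salt only. At 5 FPKM, 18 were first on at 2 h, 15 at 6 h, 10 were on in cold, 23 in drought and 20 in salt, with 0 in all 3, 0 in cold and drought, 0 in cold and salt, 9 in drought and salt and 11 in salt only. At 10 fragments, 8 were first on at 12 h and 0 were on in cold and drought. At 10% of a gene's own highest value, 9 were first on at 12 h, 23 at 6 h, 72 were on in cold, 52 in all 3, 1 in cold and drought, 7 in cold only, 11 in drought only and 9 in salt only. On the TPM scale, 35 were on in all 3, 4 in cold and drought, 11 in drought only and 11 in salt only. With 100 genes, 9 were first on at 12 h, 21 at 6 h, 14 were highest in cold, 37 in salt, and 1 was on in cold and drought, 7 in cold only, 11 in drought only and 9 in salt only. With 200 genes, 28 were first on at 12 h, 4 were on in cold and drought, 35 in drought only and 38 in salt only. Ranked by fragments, 8 were first on at 12 h, 23 were on in cold, 5 in all 3, 1 in cold and drought and 7 in cold and salt. With at least 10 fragments required in the highest library, 1 was on in cold and drought. Among alternatives chosen after seeing the data, allowing 1 to 3 fragments at 0 h gave 5 first on at 12 h, 36 on in all 3, 6 in drought only and 9 in salt only, and leaving out EPlMTRG identifiers gave 9 in all 3. When each library was left out in turn and the genes were chosen again, 47 to 111 were first on at 2 h, 14 to 83 at 6 h and 9 to 38 at 12 h. Between 7 and 28 were highest in cold, 41 to 84 in drought and 42 to 85 in salt, and 20 to 53 were on in cold, 74 to 113 in drought and 91 to 123 in salt. By class, 11 to 26 were on in all 3, 1 to 4 in cold and drought, 5 to 17 in cold and salt, 3 to 17 in cold only, 44 to 75 in drought and salt, 12 to 38 in drought only and 13 to 46 in salt only. The causes were not tested. Among the counts that moved by over 1.5 times, leaving out 2 h of cold gave 3 in cold only, 6 h of drought gave 41 highest in drought, 2 h of salt gave 47 first on at 2 h, 12 h of salt and 0 h of drought each gave 13 in salt only, and 0 h of cold gave 26 in all 3. Without the 0 h drought library, which admits genes with fragments there, 95 of the 150 genes remained, without the 0 h cold library 111 and without the 0 h salt library 129. No paired analysis was possible because the labels carry no replicate numbers and each condition had 1 library. Depth limits the genes with few fragments. A value of 0 at 0 h means that no fragment was counted in that library, and a low level below detection remains possible. The folds therefore use a floor of 3 fragments.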

Other observations

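The requirement of exactly 0 left out genes that had a few fragments at 0 h and reached comparable or higher levels later. Over the 3 libraries at 0 h, 193 genes had 1 to 3 fragments and later reached at least the level of the lowest of the 150, 79 of them with 1 fragment. The genes named here were picked after their values were seen. MTR_2g014050 had 0, 37.4 and 180 FPKM at 2, 6 and 12 h of cold, 0.203, 113 and 50.2 FPKM in drought and 6.98, 16.4 and 72.8 FPKM in salt, against 1 fragment in the libraries at 0 h. Its level in cold was above that of any of the 150 genes, and it was high in each stress, whereas the genes of the 150 on in all 3 stresses reached at most 11.6 FPKM.

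MTR_6g466130 had 137, 154 and 27.1 FPKM at 2, 6 and 12 h of cold and at most 1.07 FPKM in drought or salt, against 1 fragment at 0 h. MTR_4g102660, next in number to MTR_4g102670, had 28.4, 4.43 and 0.186 FPKM in cold, while MTR_4g102670 had 12.4, 12.8 and 0 FPKM. MTR_8g012620 had 10.1, 40 and 59.2 FPKM in drought and 59.4, 31.8 and 48.9 FPKM in salt, with at most 0.842 FPKM in cold. MTR_7g079820 had 1.48, 4.77 and 49.5 FPKM in salt and 0.564, 12.9 and 4.82 FPKM in drought. These genes had 1 to 3 fragments at 0 h, a difference from 0 within counting error. With 1 to 3 fragments allowed, 65 of the 150 genes remained among the highest 150.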
